A study of Homo sapiens with 12 samples.

Results

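Solute carriers are membrane proteins that move ions, sugars, amino acids, organic acids and drugs into and out of cells. They are the means by which the kidney tubule recovers what it filters. Levels of 111 solute carrier genes of 9 families were examined among 58051 genes counted by RNA-seq. The members were the protein-coding genes whose GENCODE symbol starts with SLC5A (12 genes), SLC6A (19), SLC7A (13), SLC9A (9), SLC12A (9), SLC16A (14), SLC22A (22), SLC26A (10) or SLC34A (3), with the cystine carrier of the SLC7A family, SLC7A11, left out by the rule. The prefix also takes in SLC7A6OS, an antisense neighbour of SLC7A6 that is not a carrier.

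The 12 libraries came from 3 human renal cell carcinoma lines grown in culture. 786-O and A-498 cells received a synthetic miR-29 mimic or a control mimic, with 1 library per group in 786-O and 2 per group in A-498. ACHN cells received a miR-29 inhibitor or a control inhibitor, with 3 libraries per group. In every group, control groups included, the oligonucleotide was given at 10 nM and RNA was taken 48 h after transfection. Each line is a single established tumour line, so a difference between lines cannot be told apart from other differences between these 3 cultures, and the 786-O values have no replicate check. Other A-498 libraries, whose labels the study held to be in doubt, were not analysed here.

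The miR-29 family is a group of small RNAs that share a seed, the bases by which a microRNA recognises sites in the 3′ untranslated region (3′ UTR) of a transcript, and pairing usually lowers the transcript. The mimic adds this activity, and the inhibitor blocks the cells' own. The mature sequences below, from RefSeq, are shown because all 3 carry the seed that the searches used. Capitals mark the seed, bases 2 to 8.
hsa-miR-29a-3p: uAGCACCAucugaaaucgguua
hsa-miR-29b-3p: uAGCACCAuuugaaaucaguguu
hsa-miR-29c-3p: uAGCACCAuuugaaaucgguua

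The sequence that pairs with this seed, TGGTGCT on the transcript strand (TGGTGCTA where the base opposite the first base of the miRNA is also an A), was found in the first 2000 nt of the longest 3′ UTR of 13 of the 111 members (11.7%). The share among all protein-coding genes with a 3′ UTR was 10.7% (2046 of 19042), so these families held such matches about as often as other genes. Over whole 3′ UTRs 19 members held a match. The stretches below belong to members whose levels are described further on. Each is written 5′ to 3′ on the transcript strand, with the match in capitals.
SLC16A1: taatctaccagTGGTGCTcaatgcaaatag
SLC16A7: gcattagtaccTGGTGCTAgagaatagaac
SLC6A6: agggcagcccgTGGTGCTgacctaggatat
SLC5A3: agcaatagcaaTGGTGCTgtgtccttcggc
SLC7A5: tctgtgatcctTGGTGCTgtgtgccccact
SLC26A11: cattttatacaTGGTGCTctggaacccaca
SLC12A8: gacatcaggaaTGGTGCTAgcctctgcaac

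In GRCh38 the 7 bases opposite the seed lie at chr1:112913804-112913810 for SLC16A1 (minus strand, 81 nt past the stop codon) and at chr12:59780484-59780490 for SLC16A7 (plus strand, 805 nt). Those of SLC6A6 lie at chr3:14486352-14486358 (plus strand, 1345 nt), those of SLC26A11 at chr17:80253420-80253426 (plus strand, 704 nt) and those of SLC12A8 at chr3:125083336-125083342 (minus strand, 548 nt). The matches of SLC5A3, at chr21:34100472-34100478 (plus strand, 3117 nt), and of SLC7A5, at chr16:87830621-87830627 (minus strand, 2343 nt), fall beyond the first 2000 nt. A match is a description of the letters and was not tested as a site.

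Each library held between 39919554 and 70027392 reads in genes, which puts 3 counts, taken as the floor of detection, at under 0.1 CPM (read counts scaled to a common library size, corrected by TMM over the 12 libraries). All 9 markers of renal epithelial origin reached 1 CPM in the control libraries of 786-O and ACHN and 8 of 9 did in A-498, where EPCAM was at 0.240 CPM. Of 7 proximal tubule markers 3, 5 and 2 did so in 786-O, A-498 and ACHN. The endocytic receptor LRP2 was under 0.2 CPM in all 12 libraries, and HNF4A, a regulator of proximal tubule genes, was at 90.9 CPM in A-498 and at or near 0 in the other 2 lines. None of 6 markers of blood, vessel or liver cells reached 1 CPM in any line's control libraries.

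At 1 CPM or more in the control libraries stood 43 members in 786-O, 47 for A-498 and 40 for ACHN. Of these, 32 were shared by the 3 lines, 54 members were under 1 CPM in all of them, and 24 had at most 3 counts in each of the 12 libraries. Levels of different genes are compared here per length of exon, as CPM per kb. The amino acid exchanger SLC7A5 (LAT1), which imports large neutral amino acids, led in 786-O at 93.3 CPM per kb and in A-498 at 105 ± 6.96 CPM per kb (SD, n = 2). In ACHN the lactate and pyruvate carrier SLC16A1 (MCT1) was at 42.1 ± 1.08 and SLC7A5 at 38.9 ± 2.72 CPM per kb (SD, n = 3), a pair of levels within about their combined spread.

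**Figure D1:**
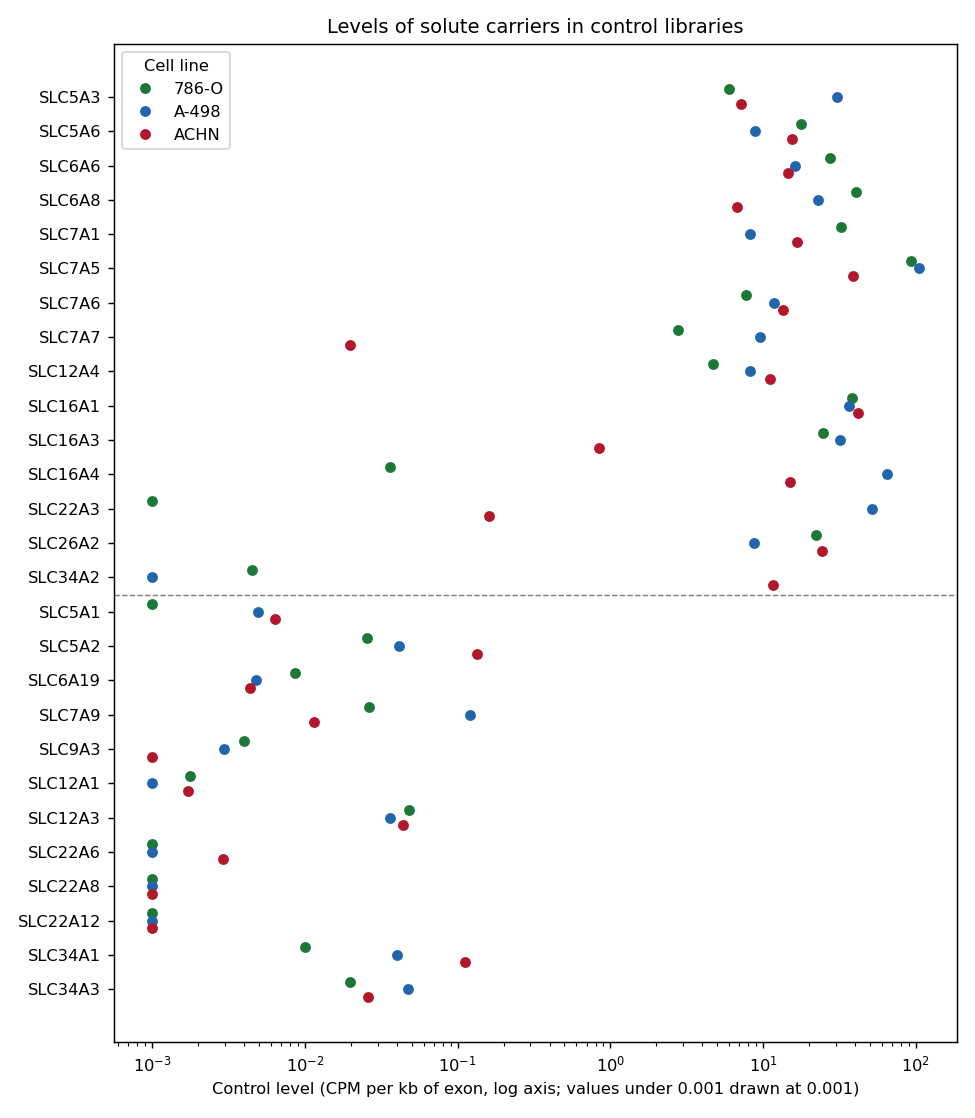
Control levels of solute carriers in 786-O (1 library), A-498 (mean of 2) and ACHN (mean of 3), in CPM per kb of exon on a log axis, with values at or near 0 drawn at the left edge. Above the dashed line are most of the members among the 10 highest in any line, below it 12 carriers of the kidney tubule: all 12 were under 1 CPM in the control libraries of every line.

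After SLC7A5, the order in 786-O was led by the creatine carrier SLC6A8 at 40.9, SLC16A1 at 38.2 and the cationic amino acid carrier SLC7A1 at 32.4 CPM per kb. In A-498, it was SLC16A4, a relative of the lactate carriers, at 64.9 ± 2.01, the organic cation carrier SLC22A3 at 51.7 ± 1.82, SLC16A1 at 36.8 ± 1.78, the lactate exporter SLC16A3 (MCT4) at 32.0 ± 1.63 and the myo-inositol carrier SLC5A3 at 30.4 ± 1.31 CPM per kb (SD, n = 2). The last pair lie within their spread. In ACHN, the sulphate carrier SLC26A2 followed at 24.5 ± 0.265, then SLC7A1 at 16.7 ± 0.354, with 6 further members between SLC12A4 at 11.05 and SLC5A6, a vitamin carrier, at 15.4 CPM per kb.

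Many carriers of the proximal tubule were low or not detected, while others, such as SLC16A4 and SLC7A7 in A-498, were among the members with the highest levels. Of a list of 29 proximal tubule carriers, 7 reached 1 CPM in the 786-O control library, 8 in those of A-498 and 6 in those of ACHN, and these included SLC22A4, SLC22A5, SLC26A1, SLC26A6 and SLC16A9 in every line. The glucose carriers SLC5A1 and SLC5A2, the neutral amino acid carrier SLC6A19, the cystine and cationic amino acid carrier SLC7A9, the sodium-proton exchanger SLC9A3 and the phosphate carriers SLC34A1 and SLC34A3 were under 1 CPM in each of the 12 libraries. The organic anion carriers SLC22A8 and SLC22A12 had 0 counts in all 12, and SLC22A6 had at most 1 count in any library. For SLC12A1, the furosemide target of the thick ascending limb, and SLC12A3, the thiazide target of the distal tubule, no library reached 0.4 CPM. The SLC9A3 gene has pseudogene copies and the gene CTXN2 overlaps SLC12A1, so reads could be lost from both.

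Between the control libraries of A-498 and ACHN, 69 members were tested and 46 differed by at least 2-fold at an adjusted p under 0.05 (edgeR quasi-likelihood test), 29 higher in A-498 (42.0%) and 17 higher in ACHN (24.6%). Over all 19689 genes tested, 21.6% were higher in A-498 and 16.5% in ACHN by the same rule. The control libraries of A-498 carried a control mimic and those of ACHN a control inhibitor, and line and oligonucleotide cannot be told apart. The SLC22A family stood on the A-498 side, with 8 of 10 tested members higher there and 0 higher in ACHN.

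SLC22A3, which carries organic cations, was at 163 and 171 CPM in the A-498 control libraries and at 0.421, 0.481 and 0.665 CPM in those of ACHN (log2 difference 8.38, SE 0.0865, edgeR adjusted p = 1.58e-24), and no read fell on it in the 786-O libraries. SLC7A7, which exports cationic amino acids across the basolateral membrane, was at 50.3 and 52.9 CPM in A-498, at 15.0 CPM in 786-O and under 0.2 CPM in ACHN. Nor did the groups overlap for SLC16A3, at 306 and 285 CPM in A-498 and at 7.76, 7.53 and 7.91 CPM in ACHN (log2 difference 5.30, SE 0.0519, edgeR adjusted p = 7.46e-25); 786-O was at 228 CPM, near A-498. The endosomal sodium-proton exchanger SLC9A9, at 17.9 and 19.5 CPM, passed 1 CPM in the control libraries of A-498 and in neither other line.

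On the ACHN side stood the phosphate carrier SLC34A2, at 58.3, 56.7 and 62.0 CPM. It had 0 counts in both A-498 control libraries, so its level in ACHN was at least 1157-fold higher, taking 3 counts per library as the floor, and in the 786-O control library it was at 0.0229 CPM. The neutral amino acid carrier SLC6A15 was at 68.0, 68.6 and 68.0 CPM in ACHN and at 0.0530 and 0.0163 CPM in A-498, with no read in 786-O. Its vesicular relative SLC6A17 was at 4.80, 4.67 and 5.01 CPM in ACHN, at 0.265 and 0.343 CPM in A-498 and at 0 in 786-O. Those 3 were the members that reached 1 CPM in the controls of ACHN alone. The creatine carrier SLC16A12 was likewise higher in ACHN, at 27.1 to 27.8 CPM against 2.12 and 2.43 CPM in A-498, and stood at 10.95 CPM in 786-O.

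With the miR-29 mimic, the share of gene reads that fell on the members went from 0.304% and 0.297% to 0.226% and 0.225% in A-498 and from 0.274% to 0.181% in 786-O. In ACHN it was 0.2% to 0.205% in controls and 0.202% to 0.208% with the inhibitor. The summed level in A-498 went from 2952 ± 30.1 to 2106 ± 5.87 CPM (SD, n = 2), and from 2218 ± 8.22 to 1885 ± 7.28 CPM when SLC7A5 and SLC16A1 were left out, so this pair made up more of the net fall than the other members together. In bulk RNA, fewer cells of a kind and less RNA per cell cannot be told apart.

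In A-498 the mimic changed the level of 39 of 66 members tested, 21 lower and 18 higher (edgeR, adjusted p under 0.05). The falls took in amino acid exchangers, lactate carriers, organic cation and carnitine carriers and the osmolyte carriers. The rises took in potassium-chloride cotransporters, sodium-proton exchangers and several SLC16A members with other substrates. Lower members made up 31.8% of those tested against 27.0% of all 19676 genes tested, and higher members 27.3% against 25.5%, so the shares lie near those over all genes. The median log2 fold change of tested members was -0.09 against 0.00 over all genes.

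**Figure D2:**
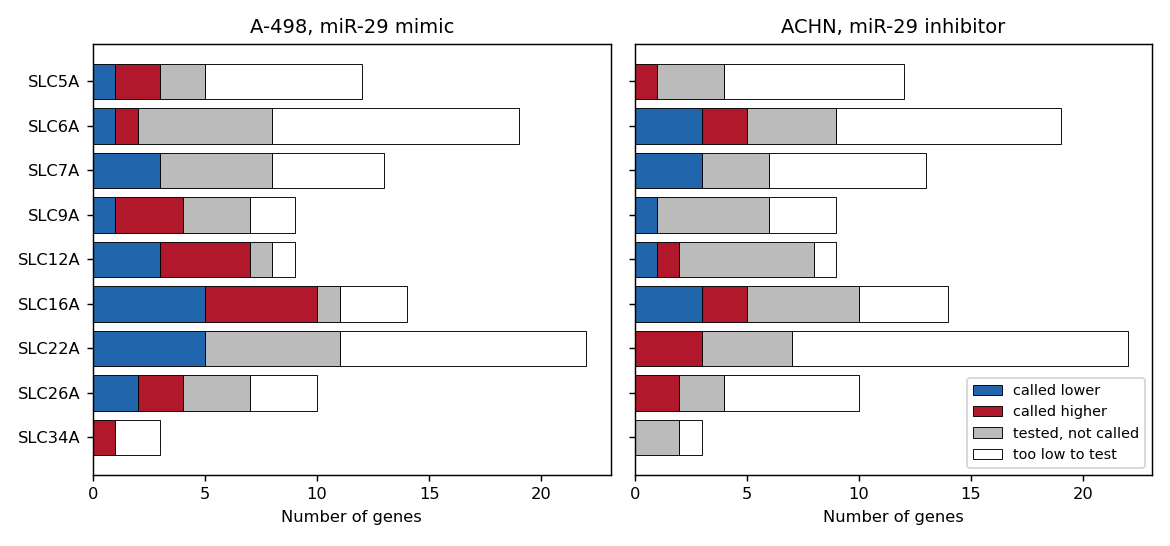
Number of genes of each family called lower (blue) or higher (red) at an edgeR adjusted p under 0.05, tested but not called (grey) or too low to test (white), with the mimic in A-498 (left) and the inhibitor in ACHN (right). With the mimic, SLC22A and SLC7A hold 5 and 3 lower genes and 0 higher, while with the inhibitor SLC22A holds 3 higher and SLC7A 3 lower.

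In ACHN the inhibitor changed 22 of 56 members tested, 11 lower and 11 higher (edgeR, adjusted p under 0.05). Lactate, osmolyte, organic cation, carnitine and sulphate carriers were among those that rose. Cationic amino acid carriers, the creatine carrier and the carriers SLC16A9 and SLC16A6 were among those that fell. Each direction took 19.6% of the members tested, against 14.4% lower and 17.3% higher among all 17904 genes tested. The median log2 fold change was 0.05, against 0.00 over all genes, and 3 of the 22 changes reached 2-fold (SLC26A11 and SLC22A3 higher, SLC16A9 lower).

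In 786-O, 59 members had at least 10 counts in the pair of libraries together. Of these, 10 were at least 2-fold lower with the mimic (16.9%, against 8.96% of all 20370 genes) and 2 at least 2-fold higher (3.39%, against 6.73%). The median log2 ratio was -0.32, against -0.01 over all genes, and 39 of the 59 lay below 0. The 10 were SLC5A11, SLC6A4, SLC7A5, SLC7A7, SLC16A1, SLC16A7, SLC16A10, SLC22A2, SLC22A4 and SLC26A1, and the 2 were SLC16A9 and SLC26A11. SLC6A4 and SLC5A11, carriers of serotonin and of myo-inositol, and SLC16A7 were under 1 CPM in both libraries. These values compare 1 library with 1 and have no test. With genes down to 1 count admitted, 7 members were at least 2-fold higher.

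Amino acid exchangers of the SLC7A family work as a light chain bound to a heavy chain, SLC3A2 in the case of SLC7A5, SLC7A6, SLC7A7 and SLC7A8. SLC7A5 (chromosome 16, 87830023 to 87869507, GRCh38, minus strand) was at 524 and 477 CPM in the A-498 control libraries and at 116 and 120 CPM with the mimic. The groups lay far apart, and the gene fell by 2.09 on the log2 scale (SE 0.0477, edgeR adjusted p = 3.29e-13), or 4.25-fold, the largest fall among the members tested in A-498. The 786-O libraries held 445 CPM in the control and 135 CPM in the mimic library, a log2 ratio of -1.72. Pseudogene copies (SLC7A5P1 and SLC7A5P2) can share its reads.

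With the inhibitor, SLC7A5 was at 171, 189 and 196 CPM in ACHN controls and at 163, 181 and 147 CPM in treated libraries. Here the groups overlapped, and the gene was lower by a log2 fold change of -0.18 (SE 0.0648, edgeR adjusted p = 0.0386), the same direction as with the mimic. The call was lost without control replicate 2 or 3 or without inhibitor replicate 1 or 3, with log2 fold changes between -0.19 and -0.11.

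SLC7A7 (chromosome 14, 22773222 to 22829820, minus strand) fell in A-498 from 50.3 and 52.9 CPM to 20.2 and 20.9 CPM, with no overlap (log2 fold change -1.33, SE 0.0540, edgeR adjusted p = 9.76e-11). The 786-O pair held 15.0 and 2.46 CPM, a log2 ratio of -2.59 and the largest fall among the members of that line. SLC7A6, whose 3′ UTR holds a match 1806 nt from the stop codon, fell less, from 89.7 and 90.1 CPM to 78.9 and 77.3 CPM (log2 fold change -0.21, SE 0.0418, edgeR adjusted p = 0.000870). Its antisense neighbour SLC7A6OS had a log2 fold change of -0.02 (edgeR adjusted p = 0.814). The libraries were stranded, so reads of this pair are told apart where the counting used strand.

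The heavy chain SLC3A2 moved with these light chains in A-498, from 406 and 401 CPM to 164 and 173 CPM (log2 fold change -1.26, SE 0.0389, edgeR adjusted p = 7.03e-12). Its groups did not overlap. Its 786-O levels were 123 and 94.1 CPM, a log2 ratio of -0.39. In ACHN it was at 214 to 225 CPM in controls and 207 to 235 CPM with the inhibitor (log2 fold change 0.04, SE 0.0497, edgeR adjusted p = 0.629).

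The cationic amino acid carriers SLC7A1 and SLC7A2, which need no heavy chain, moved with the inhibitor in ACHN. SLC7A1 fell from 125, 130 and 130 CPM to 105, 110 and 101 CPM, with no overlap (log2 fold change -0.29, SE 0.0470, edgeR adjusted p = 0.000115). SLC7A2 fell from 25.6 to 26.0 CPM in controls to 19.3 to 20.1 CPM (log2 fold change -0.40, SE 0.0532, edgeR adjusted p = 1.47e-05). In A-498 neither passed the test with the mimic, with log2 fold changes of -0.09 (SE 0.0457, edgeR adjusted p = 0.0991) for SLC7A1 and 0.10 (SE 0.0867, edgeR adjusted p = 0.381) for SLC7A2.

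Lactate and pyruvate cross the membrane through SLC16A1 (MCT1), SLC16A7 (MCT2) and SLC16A3 (MCT4), which need a chaperone such as basigin (BSG) to reach the surface. Of the 4 members on the lactate list, 3 were measured well enough to test in A-498, and all 3 of those fell. Over all genes tested there, 27.0% were lower. SLC16A1 (chromosome 1, 112911847 to 112957593, minus strand) went from 225 and 241 CPM to 104 and 102 CPM (log2 fold change -1.18, SE 0.0413, edgeR adjusted p = 2.16e-11). In 786-O it went from 242 to 73.7 CPM, a log2 ratio of -1.72. Its seed match lies close to the stop codon, as shown above, and a pseudogene copy (SLC16A1P1) can share its reads.

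In ACHN, SLC16A1 was at 275, 262 and 264 CPM in controls and at 313, 283 and 310 CPM with the inhibitor. Every treated library lay above every control, and the gene rose by a log2 fold change of 0.17 (SE 0.0443, edgeR adjusted p = 0.00544).

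SLC16A3 (chromosome 17, 82217934 to 82261129, plus strand), whose longest 3′ UTR holds no match, fell in A-498 from 306 and 285 CPM to 187 and 203 CPM (log2 fold change -0.60, SE 0.0481, edgeR adjusted p = 1.10e-07). The 786-O pair held 228 and 117 CPM (log2 ratio -0.97). In ACHN it rose from 7.76, 7.53 and 7.91 CPM to 11.9, 12.3 and 12.03 CPM (log2 fold change 0.64, SE 0.0721, edgeR adjusted p = 2.04e-06), with no overlap in either line that had replicates.

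SLC16A7 (chromosome 12, 59596029 to 59789855, plus strand) fell in A-498 from 38.2 and 44.7 CPM to 16.1 and 15.3 CPM (log2 fold change -1.41, SE 0.0724, edgeR adjusted p = 1.11e-09). It was at 52.3 to 54.8 CPM in ACHN controls and 52.0 to 61.0 CPM with the inhibitor, where the groups overlapped and the test was not passed (log2 fold change 0.09, SE 0.0523, edgeR adjusted p = 0.204). In 786-O it was under 0.4 CPM in both libraries. The chaperone basigin did not follow these carriers: BSG went from 281 and 256 CPM to 313 and 334 CPM in A-498 (log2 fold change 0.26, SE 0.0482, edgeR adjusted p = 0.000341).

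**Figure D3:**
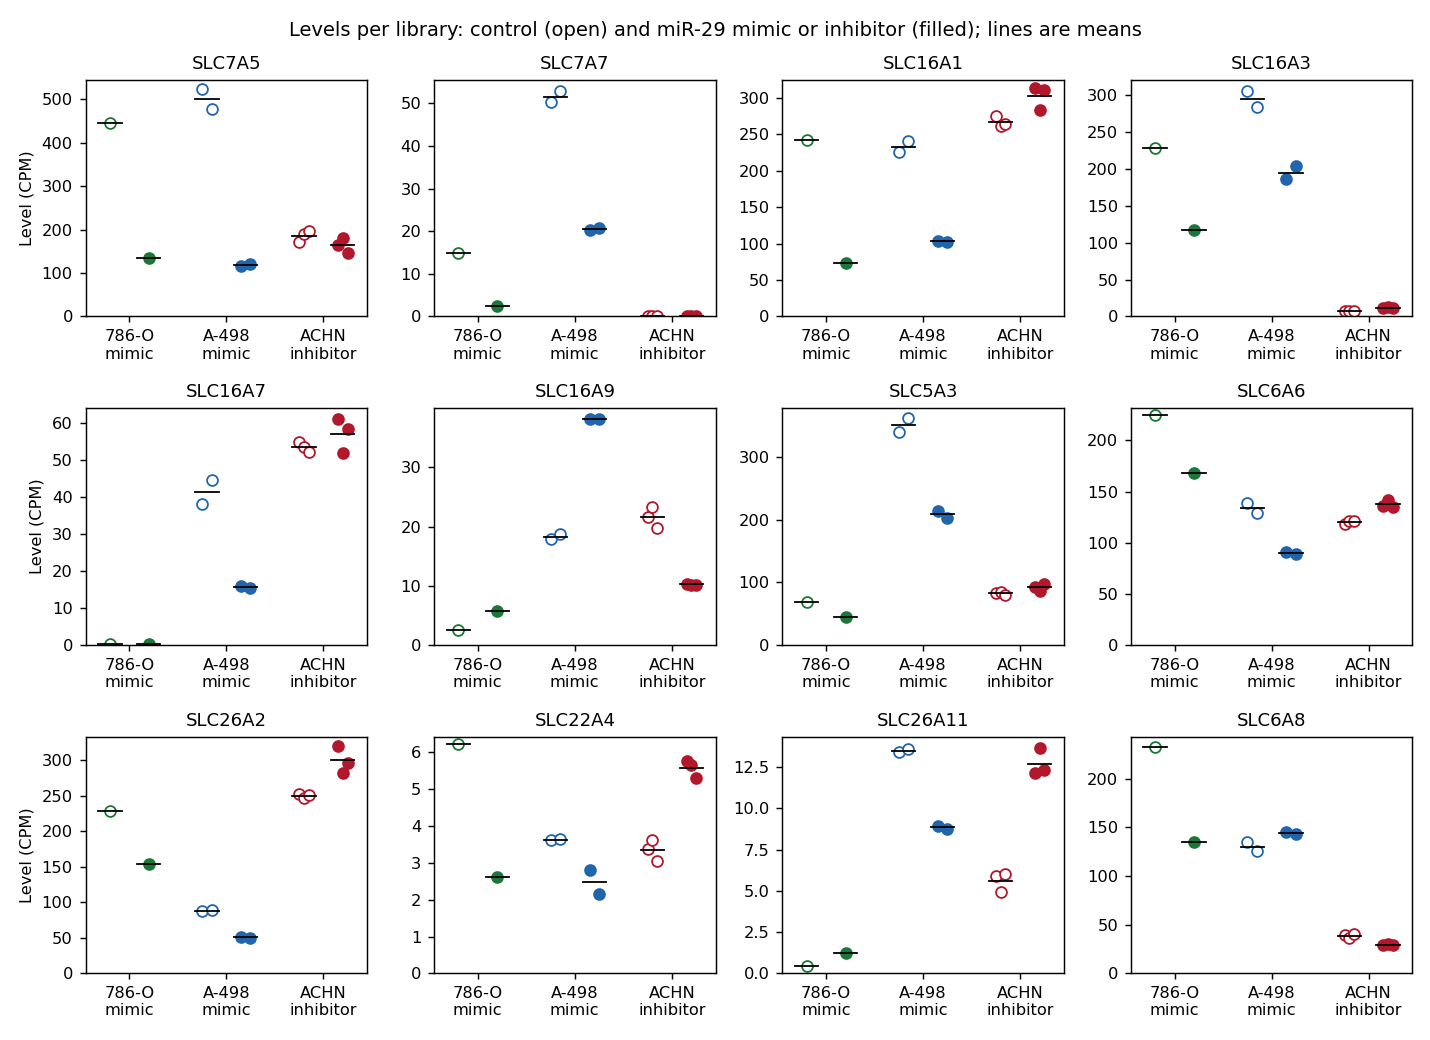
Level of 12 carriers in each library, in CPM, for 786-O and A-498 (control mimic open, miR-29 mimic filled) and ACHN (control inhibitor open, miR-29 inhibitor filled), with lines at group means. SLC7A5 falls from about 445 and 501 to 135 and 118 CPM with the mimic, SLC16A9 moves the opposite way from most (18.3 to 38.2 CPM in A-498, 21.6 to 10.2 CPM in ACHN), and SLC26A11 falls in A-498 but not in 786-O.

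Other SLC16A members rose with the mimic. SLC16A9, a carrier linked to carnitine and urate, went from 17.9 and 18.7 CPM to 38.1 and 38.2 CPM in A-498 (log2 fold change 1.06, SE 0.0562, edgeR adjusted p = 1.47e-09), and from 2.47 to 5.77 CPM in 786-O (log2 ratio 1.21). In ACHN it fell with the inhibitor from 21.6, 23.4 and 19.8 CPM to 10.4, 10.2 and 10.1 CPM (log2 fold change -1.08, SE 0.0711, edgeR adjusted p = 2.06e-09). The groups were apart in both replicated lines.

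SLC16A6, a ketone body carrier with a pseudogene copy, followed the same course at lower levels. It went from 0.389 and 0.229 CPM to 1.40 and 1.74 CPM in A-498 (log2 fold change 2.34, SE 0.266, edgeR adjusted p = 4.06e-06), from 1.83 to 3.61 CPM in 786-O (log2 ratio 0.96), and from 2.55 to 2.71 CPM in ACHN controls to 1.47 to 1.81 CPM with the inhibitor (log2 fold change -0.67, SE 0.132, edgeR adjusted p = 0.000657). SLC16A12 rose in A-498, from 2.12 and 2.43 CPM to 5.94 and 5.88 CPM (log2 fold change 1.37, SE 0.115, edgeR adjusted p = 1.87e-07). SLC16A4 rose there from 201 and 210 CPM to 272 and 259 CPM (log2 fold change 0.37, SE 0.0395, edgeR adjusted p = 2.33e-06).

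In ACHN, SLC16A4 was at 45.7 to 49.2 CPM in controls and 41.2 to 44.2 CPM with the inhibitor (log2 fold change -0.14, SE 0.0472, edgeR adjusted p = 0.0354). That call was lost without control replicate 1 or 2 or inhibitor replicate 2 or 3, and with no filter on low counts.

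Cells of the inner kidney hold organic osmolytes such as myo-inositol, taurine and betaine, brought in by SLC5A3, SLC6A6 and SLC6A12. The myo-inositol carrier SLC5A3 (chromosome 21, 34073578 to 34106260, plus strand) fell in A-498 from 341 and 363 CPM to 215 and 203 CPM, with no overlap (log2 fold change -0.75, SE 0.0410, edgeR adjusted p = 1.93e-09). Levels in 786-O were 69.2 and 45.0 CPM (log2 ratio -0.62). In ACHN it was at 83.5, 84.6 and 80.3 CPM in controls and at 93.3, 86.0 and 98.0 CPM with the inhibitor (log2 fold change 0.16, SE 0.0515, edgeR adjusted p = 0.0270), a call lost without control replicate 1 or 3 or inhibitor replicate 1 or 3. The gene MRPS6 shares exons with SLC5A3 on its strand, so its counts are uncertain.

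The taurine carrier SLC6A6 (chromosome 3, 14402576 to 14489349, plus strand) fell in A-498 from 139 and 129 CPM to 90.8 and 89.4 CPM (log2 fold change -0.57, SE 0.0455, edgeR adjusted p = 1.08e-07). The 786-O levels were 225 and 168 CPM (log2 ratio -0.43), and a pseudogene copy (SLC6A6P1) can share its reads. It rose in ACHN from 119, 122 and 121 CPM to 136, 142 and 135 CPM, again with no overlap (log2 fold change 0.19, SE 0.0446, edgeR adjusted p = 0.00310). SLC6A12 was under 1 CPM in all 12 libraries, and was tested in ACHN (log2 fold change 0.12, SE 0.239, edgeR adjusted p = 0.758) but too low to test in A-498. NFAT5, the transcription factor of the osmotic response, was at 22.7 and 24.3 CPM in A-498 controls and 28.8 and 28.7 CPM with the mimic (log2 fold change 0.29, SE 0.0582, edgeR adjusted p = 0.000728).

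The creatine carrier SLC6A8, whose reads a pseudogene copy (SLC6A10P) can share, did not keep 1 direction across the lines given the mimic. Its level in 786-O was 233 CPM in the control and 135 CPM in the mimic library (log2 ratio -0.79). In A-498 it was at 135 and 125 CPM in controls and 146 and 143 CPM with the mimic (log2 fold change 0.15, SE 0.0439, edgeR adjusted p = 0.0108), a call lost without control replicate 3 or without either mimic replicate. It fell in ACHN from 39.1, 36.1 and 40.9 CPM to 28.8, 30.0 and 29.2 CPM (log2 fold change -0.40, SE 0.0519, edgeR adjusted p = 8.66e-06). In ACHN SLC6A15 also fell, to 56.1, 50.2 and 52.4 CPM from the levels given above (log2 fold change -0.37, SE 0.0459, edgeR adjusted p = 6.03e-06). SLC6A17 fell there to 2.84, 2.75 and 2.71 CPM (log2 fold change -0.81, SE 0.101, edgeR adjusted p = 6.80e-06).

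SLC26 proteins exchange anions. The sulphate carrier SLC26A2 (chromosome 5, 149960758 to 149993455, plus strand), mutated in chondrodysplasias, fell in A-498 from 88.4 and 88.7 CPM to 51.3 and 50.3 CPM (log2 fold change -0.80, SE 0.0438, edgeR adjusted p = 1.96e-09). The pair of 786-O libraries held 228 and 154 CPM (log2 ratio -0.57). It rose in ACHN from 252, 247 and 251 CPM to 320, 283 and 297 CPM (log2 fold change 0.26, SE 0.0451, edgeR adjusted p = 0.000232). The groups did not overlap in A-498 or ACHN.

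SLC26A11 (chromosome 17, 80219699 to 80253500, plus strand), a sulphate carrier with a seed match, fell with the mimic in A-498 from 13.4 and 13.6 CPM to 8.91 and 8.76 CPM (log2 fold change -0.61, SE 0.0736, edgeR adjusted p = 7.22e-06). It rose with the inhibitor in ACHN from 5.87, 4.93 and 6.01 CPM to 12.1, 13.7 and 12.3 CPM, the largest rise among the members tested there (log2 fold change 1.18, SE 0.0878, edgeR adjusted p = 1.08e-08). In 786-O it was low, at 0.435 CPM in the control and 1.23 CPM in the mimic library (log2 ratio 1.41). SLC26A1, a basolateral sulphate and oxalate exchanger, was at 11.3 and 2.76 CPM in 786-O (log2 ratio -2.02). In A-498 it was at 8.995 and 8.28 CPM against 7.14 and 7.91 CPM and did not pass the test (log2 fold change -0.20, SE 0.0902, edgeR adjusted p = 0.0764).

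SLC26A7 and SLC26A4 (pendrin), chloride and bicarbonate exchangers of the distal nephron, were low in A-498 and higher with the mimic. SLC26A7 went from 0.495 and 0.310 CPM to 1.67 and 1.34 CPM (log2 fold change 1.91, SE 0.253, edgeR adjusted p = 1.89e-05), and LRRC69 overlaps it on the same strand. SLC26A4 went from 2.26 and 2.06 CPM to 2.87 and 3.09 CPM (log2 fold change 0.46, SE 0.134, edgeR adjusted p = 0.00972), a call that DESeq2 did not make and that was lost without mimic replicate 2.

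SLC22 proteins carry organic cations, carnitine and organic anions. In A-498, 5 of 11 tested members of this family fell with the mimic and 0 rose, and in ACHN 3 of 7 rose with the inhibitor and 0 fell. The falls in A-498 made up 45.5% of those tested, against 27.0% over all genes, and the rises in ACHN 42.9%, against 17.3%. Of the 5 calls in A-498, those of SLC22A4, SLC22A5 and SLC22A23 were each lost without mimic replicate 2 and that of SLC22A2 without control replicate 3 (log2 fold change -0.51). The polyspecific cation carrier SLC22A3 (chromosome 6, 160348378 to 160452577, plus strand) fell in A-498 from 163 and 171 CPM to 112 and 111 CPM (log2 fold change -0.59, SE 0.0394, edgeR adjusted p = 1.61e-08). Its low level in ACHN rose to 1.03, 1.13 and 1.30 CPM (log2 fold change 1.16, SE 0.214, edgeR adjusted p = 0.000385).

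The neighbouring genes SLC22A4, which carries ergothioneine, and SLC22A5, which carries carnitine, both moved in opposite directions with mimic and inhibitor. SLC22A4 (chromosome 5, 132294394 to 132344190) went from 3.62 and 3.64 CPM to 2.80 and 2.15 CPM in A-498 (log2 fold change -0.55, SE 0.138, edgeR adjusted p = 0.00395), and from 3.37, 3.61 and 3.04 CPM to 5.77, 5.65 and 5.31 CPM in ACHN (log2 fold change 0.73, SE 0.101, edgeR adjusted p = 2.07e-05). For 786-O the values were 6.22 and 2.62 CPM (log2 ratio -1.23). Without mimic replicate 2 the A-498 call was lost (log2 fold change -0.38).

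SLC22A5 went from 29.5 and 30.3 CPM to 26.0 and 25.2 CPM in A-498 (log2 fold change -0.22, SE 0.0555, edgeR adjusted p = 0.00363, lost without mimic replicate 2). In ACHN it went from 22.6, 21.8 and 22.2 CPM to 26.1, 26.5 and 27.4 CPM (log2 fold change 0.26, SE 0.0526, edgeR adjusted p = 0.000815). In 786-O the pair of values was 32.5 and 27.1 CPM. The renal cation carrier SLC22A2 was at 1.72 and 0.502 CPM in 786-O (log2 ratio -1.69) and under 1 CPM in every A-498 library, where it was called lower by edgeR but not by DESeq2 or without control replicate 3. Of the 14 proximal tubule carriers tested in A-498, 4 fell (SLC7A7, SLC22A2, SLC22A4 and SLC22A5) and 3 rose (SLC16A4, SLC16A9 and SLC34A1, the last under 0.6 CPM). At 28.6% and 21.4% these shares lie near the 27.0% and 25.5% over all genes. Beside this list, the summed level of the 7 proximal tubule markers, of which LRP2 was at or near 0, went from 217 and 237.5 CPM in the A-498 control libraries to 177.2 and 177.7 CPM with the mimic, and their part in the result was not tested.

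SLC12A members carry chloride with potassium or sodium and set cell volume and intracellular chloride. In A-498 the inward carrier SLC12A2 (NKCC1) fell from 35.2 and 39.1 CPM to 28.0 and 25.9 CPM (log2 fold change -0.47, SE 0.0624, edgeR adjusted p = 2.09e-05). The potassium-chloride cotransporters SLC12A4, SLC12A5 and SLC12A7 were called higher there, with log2 fold changes of 0.20, 0.63 and 0.21. The SLC12A4 call was lost without A-498 control replicate 3 (log2 fold change 0.09). SLC12A9, a less studied member of the family, rose from 46.1 and 40.4 CPM to 50.02 and 50.4 CPM (log2 fold change 0.21, SE 0.0610, edgeR adjusted p = 0.00891).

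SLC12A8, whose 3′ UTR holds a match, was lower with either oligonucleotide. In A-498 it went from 29.3 and 27.3 CPM to 23.2 and 23.0 CPM (log2 fold change -0.29, SE 0.0603, edgeR adjusted p = 0.000889), and in ACHN from 17.3, 18.2 and 21.2 CPM to 13.6, 15.1 and 14.0 CPM (log2 fold change -0.41, SE 0.0757, edgeR adjusted p = 0.000367). In 786-O it was at 33.7 and 20.4 CPM (log2 ratio -0.73). SLC7A5 was the other member lower in both.

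Sodium-proton exchangers set the pH of the cytosol and of organelles such as endosomes and the Golgi (SLC9A7, SLC9A8 and SLC9A9). In A-498, 3 of 7 tested rose, SLC9A7 and SLC9A8 among them, and SLC9A9 fell. These are 42.9% higher and 14.3% lower, against 25.5% and 27.0% over all genes tested. SLC9A8 went from 27.2 and 25.1 CPM to 34.7 and 36.5 CPM (log2 fold change 0.44, SE 0.0600, edgeR adjusted p = 2.28e-05), and 786-O from 30.7 to 41.9 CPM (log2 ratio 0.44). In ACHN it fell from 14.1, 15.8 and 14.1 CPM to 12.4, 13.6 and 11.7 CPM (log2 fold change -0.23, SE 0.0758, edgeR adjusted p = 0.0280), a call lost without control replicate 2 or inhibitor replicate 1 or 3. SLC9A9 fell from 17.9 and 19.5 CPM to 10.5 and 10.3 CPM (log2 fold change -0.85, SE 0.0712, edgeR adjusted p = 1.80e-07).

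The mimic in A-498 and the inhibitor in ACHN addressed opposite changes of the same activity. Of 50 members tested in both lines, 10 fell with the mimic but rose with the inhibitor (20.0%, against 10.5% of all 16708 genes tested in both), among them SLC5A3, SLC6A6, SLC16A1, SLC16A3, SLC22A3, SLC22A4, SLC22A5, SLC26A2 and SLC26A11. A further 5 rose with the mimic but fell with the inhibitor (10.0%, against 7.37%), namely SLC6A8, SLC9A8, SLC16A4, SLC16A6 and SLC16A9. SLC7A5 and SLC12A8 were lower in both, and 0 were higher in both. In 786-O, 8 of the first 10 had a log2 ratio below 0, SLC22A3 had no read, and SLC26A11 lay above 0. Of the second group, SLC6A8 lay below 0 in 786-O and the others above it.

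**Figure D4:**
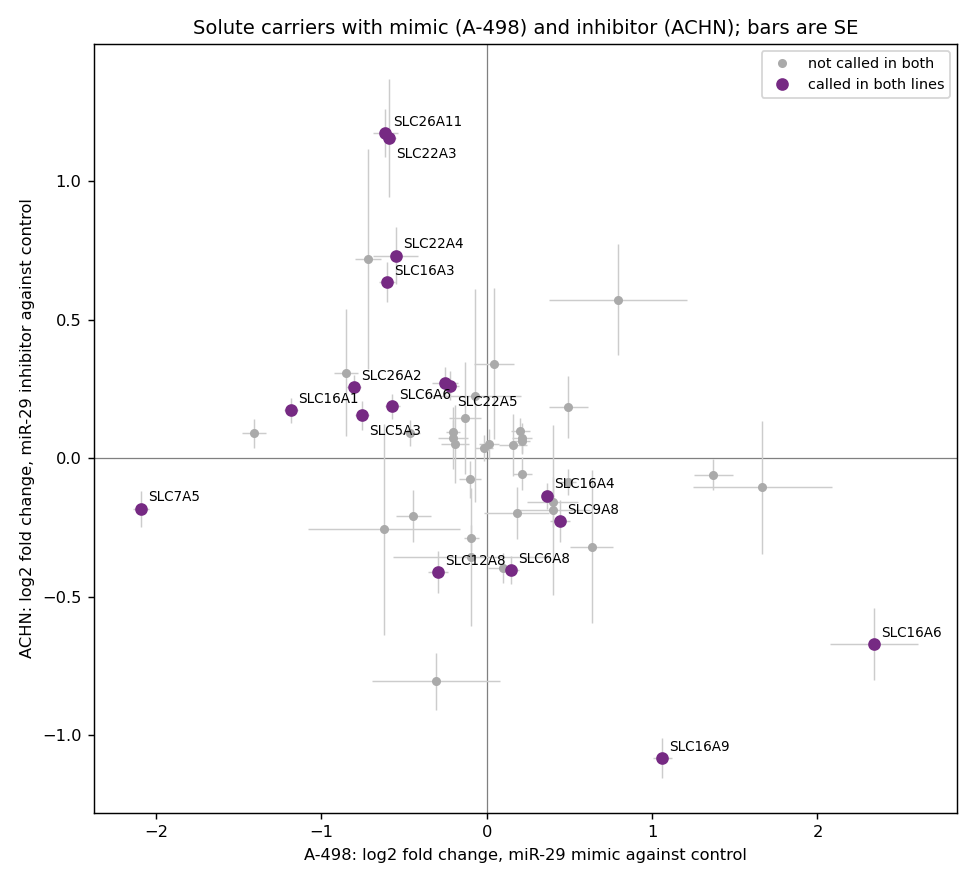
Log2 fold change of the 50 members tested in both lines, with the mimic in A-498 (horizontal) and the inhibitor in ACHN (vertical), bars showing the standard error. Of the 17 members called in both lines, drawn in purple, 10 lie at upper left, 5 at lower right, and SLC7A5 and SLC12A8 at lower left.

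Of the 13 members with a seed match in the first 2000 nt, 8 were tested in A-498. SLC6A6, SLC7A6, SLC12A8, SLC16A1, SLC16A7 and SLC26A11 were called lower, and SLC12A5 and SLC12A7 higher, with a median log2 fold change of -0.43. That is 75% lower and 25% higher, against 27.0% and 25.5% of all 19676 genes tested, with or without a match. Among the 58 tested members without a match, 15 were lower and 16 higher, with a median of -0.04. In ACHN, 3 of 8 with a match were higher (SLC6A6, SLC16A1 and SLC26A11) and 1 lower (SLC12A8), against 8 higher and 10 lower of 48 without one. The shares with a match were 37.5% higher and 12.5% lower, against 17.3% and 14.4% over all genes tested. The counts by match are for the members alone, and whether a match has a part in them was not tested. SLC7A5 and SLC5A3 count as without a match by the limit of 2000 nt. SLC12A5 counts as with a match only by the rule of the longest 3′ UTR, which in its case is spliced. Its matches lie 359 and 1342 nt past the stop codon of that transcript. On chromosome 20 they start at 46041515 and 46049633, and the gene ends at 46060150. Whether the SLC12A5 transcripts of these cells hold them in a 3′ UTR was not tested.

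The vitamin carrier SLC5A6, which brings in biotin and pantothenate, rose with the mimic in A-498 from 50.7 and 47.9 CPM to 69.9 and 69.2 CPM (log2 fold change 0.49, SE 0.0482, edgeR adjusted p = 8.74e-07). It was at 98.7 and 88.8 CPM in 786-O and passed no test in ACHN (log2 fold change -0.09, SE 0.0471, edgeR adjusted p = 0.186). Other called members in A-498 were SLC5A11 (log2 fold change 0.73) and SLC16A5 (0.40), which were higher, and SLC16A13 (-0.44) and SLC22A23 (-0.24), which were lower. DESeq2 did not make the calls of SLC5A11, SLC16A5 and SLC22A23. That of SLC16A5 was also lost with no filter on low counts and without control replicate 3 or mimic replicate 1, and that of SLC22A23 with library size in place of TMM and without mimic replicate 2 (log2 fold change -0.15). In ACHN the GABA carrier SLC6A13 rose from 0.770 to 1.02 CPM in controls to 1.13 to 1.73 CPM (log2 fold change 0.57, SE 0.202, edgeR adjusted p = 0.0367). Its call was lost with DESeq2 and without control replicate 1 or 2 or inhibitor replicate 2 (log2 fold change 0.36 without the last). The phosphate carrier SLC34A2, at 53.5 to 59.8 CPM with the inhibitor in ACHN, did not pass the test (log2 fold change -0.09, SE 0.0497, edgeR adjusted p = 0.203).

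Both mimic experiments could be set against each other, with a test that takes its spread from the A-498 libraries alone because 786-O has none. Of 72 members tested, 28 had a mimic effect that differed between the lines (edgeR interaction, adjusted p under 0.05). Of the members tested, 19 had a lower value in 786-O (26.4%) and 9 a higher one (12.5%). Over all 22587 genes tested, 29.6% differed in either direction. With a coefficient of variation of 0.2 between libraries set in place of the A-498 spread, an alternative added after the data were seen, 2 of the 28 passed, so the other calls rest on 786-O varying as little as A-498. The 2 that passed were SLC26A7, whose level in 786-O was 4.73 CPM in the control and 3.95 CPM in the mimic library (log2 ratio -0.26), and SLC26A11. The difference between the lines was -2.13 (SE 0.322, edgeR adjusted p = 3.41e-05, and 0.0236 with the fixed value) for SLC26A7 and 2.15 (SE 0.337, edgeR adjusted p = 5.09e-05, and 0.0479 with the fixed value) for SLC26A11. For SLC26A1 it was -1.79 (edgeR adjusted p = 3.44e-07, and 0.0543 with the fixed value).

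**Figure D5:**
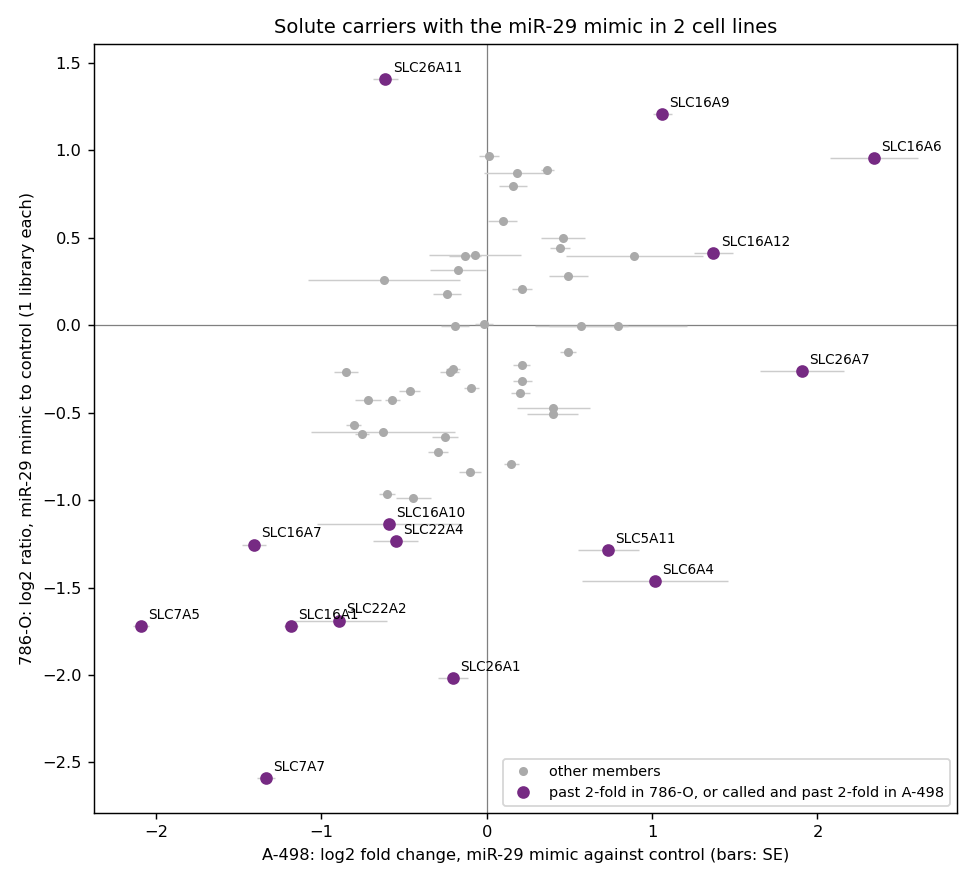
Effect of the mimic on members in A-498 (horizontal, log2 fold change with its standard error) and 786-O (vertical, log2 ratio of 1 library to 1). SLC7A5, SLC7A7, SLC16A1 and SLC16A7 lie at lower left, SLC16A9, SLC16A6 and SLC16A12 at upper right, and SLC26A11 lies at upper left, lower in A-498 and higher in 786-O.

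Proteins that carriers need or that regulate them were taken from a list of 38 partner genes. In A-498, 12 of 31 tested were lower and 15 higher with the mimic, while the inhibitor in ACHN left 7 of 34 lower and 5 higher (both edgeR, adjusted p under 0.05). These are 38.7% and 48.4% in A-498, against 27.0% and 25.5% over all genes, and 20.6% and 14.7% in ACHN, against 14.4% and 17.3%. Beside SLC3A2, changes of at least 2-fold in A-498 included those of ATP1B1 and SGK1. ATP1B1, the beta subunit of the sodium pump that powers these carriers, went from 326 and 338 CPM to 129 and 126 CPM (log2 fold change -1.39, SE 0.0377, edgeR adjusted p = 1.90e-12), and in 786-O from 119 to 78.9 CPM. With the inhibitor in ACHN, ATP1B1 did not pass the test and did not rise (log2 fold change -0.10, SE 0.0466, edgeR adjusted p = 0.116).

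SGK1, a kinase that raises the activity of many carriers, fell with the mimic from 26.7 and 28.2 CPM to 8.27 and 9.30 CPM in A-498 (log2 fold change -1.65, SE 0.0731, edgeR adjusted p = 2.39e-10). It rose with the inhibitor from 87.5, 84.1 and 86.3 CPM to 148, 140 and 151 CPM in ACHN (log2 fold change 0.76, SE 0.0465, edgeR adjusted p = 7.70e-10). The groups of SGK1 did not overlap in either line.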

How the data were processed

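Gene expression was measured in 12 stranded, ribosomal RNA depleted libraries, grouped by their labels. The authors aligned paired reads to GRCh38 with HISAT2 and deposited raw counts per Ensembl v87 gene made with HTSeq-count (strict intersection). Their deposited DESeq2 tables of fold changes and p-values were not used. Symbols, exon lengths and 3′ UTRs came from GENCODE v44 on the same build, with an entry for 98.1% of genes. Reads assigned to no gene (37.2% to 48.0%) were left out.

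Counts were tested here with edgeR 4.0.16 (R 4.3.3, quasi-likelihood, TMM, filterByExpr, Benjamini-Hochberg over all genes tested), separately for each line and for the control libraries of A-498 against ACHN. In 786-O, log2 ratios of CPM used a prior count of 2 and genes with at least 10 counts. Fitted log2 fold changes and printed CPM come from separate TMM scalings. DESeq2 1.42.0, library-size scaling, no filter and each library left out were alternatives. The edgeR steps were checked on simulated data. No pair of replicates was a copy, and intervals of counts cover counting error only.

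The members and lists were chosen with earlier results of these data known. Named genes were the called members with the largest changes whose groups did not overlap and that reached 1 CPM (786-O: the largest ratios), the 10 highest per length in each line, members called in opposite directions in A-498 and ACHN, and a fixed panel. A few of the genes this rule takes are not reported here.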

Additional observations from a re-analysis of the deposited data

Results flagged for a closer look

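By the interaction test, 18 of the named members responded to the mimic differently in 786-O and in A-498. The test takes its spread from A-498, and 2 of these members were called with a fixed coefficient of variation, as given above. Values are the log2 effect in 786-O minus that in A-498. It was below 0 for SLC26A7 (-2.13), SLC5A11 (-2.10), SLC26A1 (-1.79), SLC16A6 (-1.32), SLC7A7 (-1.23), SLC16A12 (-0.91), SLC6A8 (-0.90), SLC26A6 (-0.69), SLC22A4 (-0.65), SLC5A6 (-0.60), SLC16A13 (-0.50), SLC16A1 (-0.49) and SLC16A3 (-0.32). It was above 0 for SLC26A11 (2.15), SLC22A18 (0.69), SLC7A2 (0.55), SLC7A5 (0.41) and SLC26A2 (0.28).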

How the results depend on the processing

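With library size in place of TMM, the median of all genes moved by 0.08 (log2) in A-498, the all-gene split went from 5313 lower and 5015 higher to 4352 and 6191, and that of members from 21 and 18 to 19 and 20. Without a minimum fold, 28 members in place of 17 were higher in ACHN than in A-498. Admitting 1 count in 786-O gave 7 members at least 2-fold higher in place of 2. The fixed coefficient of variation left 2 of 28 line differences. Leaving out each library gave 18 to 22 members lower and 14 to 21 higher in A-498, and 8 to 13 lower and 9 to 11 higher in ACHN. ACHN replicate numbers did not pair (same-number correlations -0.0505 to 0.0417), and a replicate block left 11 lower, 11 higher and 10 reversed members, with 6 and 5 partner genes lower and higher. No named change reversed under the alternatives run. DESeq2 lost the A-498 calls of 6 named members. Low counts limit what can be said of members under 1 CPM.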
